A study of Mus musculus with 45 samples.

Results

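The genes described here are 10 of the 52636 genes measured: the transcription factors Neurog3 and Neurod1, the granins Chga and Chgb, and the hormone genes Gcg, Cck, Sct, Gip, Nts and Tac1. They were chosen by name as regulators and products of the hormone-secreting lineage of the gut, with no threshold on a measured value, and all 10 were found in both tables. The study asked what the receptor Lgr5 does in intestinal stem cells, and sequenced RNA from 15 libraries of sorted mouse cells and 30 libraries of mouse organoids, which are small epithelial cultures grown in a gel.

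All sorted cells were taken by an eGFP reporter placed at Lgr5, and cells of the Lgr5-Cre line had to carry tdTomato as well, from a Rosa26R-Tomato allele that Cre switches on. In the Lgr5-DTReGFP line a cassette for the diphtheria toxin receptor and eGFP sits in Lgr5 and disrupts that copy, so heterozygous (HE) cells kept 1 intact copy and knockout (KO) cells none. At E16.5 the whole small intestine of HE embryos made 2 pools, from 7 embryos of litter 85 and from 8 embryos of litter 97, and the KO pools held 2 and 6 embryos of those same litters. At E18.5 the HE cells came from the whole small intestine of 2 single embryos. Adult HE cells of that line came from the duodenum and the ileum of 2 mice aged 2 months. Another 5 adult libraries came from ileum of the Lgr5-Cre line, in which a reporter and Cre knock-in disrupts Lgr5; the mice were 2 months old, had been given 2 mg of tamoxifen and were harvested 48 hours later. By their labels, 2 of these mice were heterozygous (Lgr5-Cre/+, HE) and 3 were conditional knockouts (Lgr5-Cre/flox, cKO). In the knockouts Cre deletes an exon of the other copy, which shifts the reading frame and leaves that copy null. Organoids came from E17.5 small intestine of the Lgr5-DTReGFP line, as wild-type (WT) cultures WT10, WT5 and WT30 and knockout cultures KO7 and KO2. At passage 4 each culture was grown in mouse Rspo1, Rspo2 or Rspo3 at 100 or 5 ng/ml, which gives 12 groups of 3 WT or 2 KO libraries.

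These models have limits that touch every value. The heterozygous controls lack a working copy of Lgr5 themselves, the reporter reads the Lgr5 promoter rather than a lineage, and the E16.5 pools average unequal numbers of embryos. Each organoid culture is a single line, and whole cultures were sequenced without sorting.

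Enteroendocrine cells are the scattered hormone-secreting cells of the gut epithelium, and they arise from the same stem cells as absorptive and other secretory cells. Progenitors that commit to this fate switch on Neurog3 for a short time, and Neurod1 follows as they mature. Mature cells store peptide hormones in dense granules together with granins, and which hormones they make depends on their place along the gut and on their age. Rspondins are secreted proteins that bind Lgr5 and its relatives and strengthen Wnt signalling, on which intestinal stem cells depend.

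Values are in CPM, a share of all reads that were counted on genes. The steps between low values imply 1275872 to 9983367 counted reads in the sorted libraries and 18127791 to 33105592 in the organoid libraries. At these depths all low values come out as whole reads in the 4 E16.5 pools and in the Lgr5-Cre library labelled HE mouse 2, and 34.2% to 87.2% of them in the other sorted libraries, whose depths and read numbers are estimates. Organoid depths are estimates too, since in most of those libraries 1 read is smaller than the 0.05 CPM rounding. In the shallowest library, E16.5 HE pool 1, 3 reads equal 2.35 CPM, so a low value there rests on very few reads. In bulk RNA of this kind, fewer cells of a type and less RNA per cell cannot be told apart.

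Lgr5 itself, which marks the stem cells, stood in HE pools of E16.5 at 104.25 and 125.1 CPM, and in KO pools at 64.75 and 51.65 CPM. It was at 306.05 and 292.4 CPM in the E18.5 embryos, at 345.85 and 308.4 CPM in adult duodenum and at 339.1 and 355.95 CPM in adult ileum of the same line. In the Lgr5-Cre line it was at 52.8 and 87.55 CPM in the libraries labelled HE and at 89.15, 109.35 and 90.65 CPM in those labelled cKO. KO pools at E16.5 were thus low but far from 0, and the libraries labelled cKO were not below those labelled HE. Whether loss of an exon in cKO cells lowers the Lgr5 count was not tested.

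In WT organoids (WT10, WT5, WT30) Lgr5 was at 116.3, 191.9 and 94.2 CPM with 100 ng/ml Rspo1 and at 5.4, 5.65 and 3.45 CPM with 5 ng/ml. Under Rspo2 the values were 379.0, 246.95 and 457.5 CPM at the high dose and 15.9, 28.7 and 6.1 CPM at the low dose. Rspo3 gave 50.65, 48.85 and 39.35 CPM at the high dose and 0.35, 0.6 and 0.45 CPM at the low dose. Lgr5 was high in every WT library at 100 ng/ml and low in every WT library at 5 ng/ml, with no overlap within a ligand.

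In KO organoids (KO7, KO2) the Lgr5 transcript, still made from the disrupted locus, was at 57.85 and 91.65 CPM with 100 ng/ml Rspo1 and at 1.1 and 7.4 CPM with 5 ng/ml. Under Rspo2 this transcript was at 104.45 and 75.0 CPM at the high dose and at 20.55 and 90.45 CPM at the low dose. Rspo3 gave 35.15 and 41.25 CPM at the high dose and 0.2 and 0.25 CPM at the low dose. A single library stood apart: KO2 with 5 ng/ml Rspo2 held as much Lgr5 as KO libraries at the high dose. Its summed stem marker level was 3891 CPM, against 1812 CPM in KO7 in the same condition and 3407 CPM in KO2 at the high dose, so the comparisons that use it were also fitted without it, an alternative chosen after seeing the data. Medians, sums and correlations over libraries keep it.

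Sex also followed genotype in part. Xist, which female cells express, was at 1029.7 CPM or more in each of the 18 WT organoid libraries and at 213.2 CPM or less in each of the 12 KO libraries. The 213.2 CPM stood apart, in KO2 with 100 ng/ml Rspo1, and every other KO library was at 39.05 CPM or less. Among the Lgr5-Cre libraries Xist was at 1.7 and 0.65 CPM in those labelled HE and at 1298.15, 1161.55 and 1551.2 CPM in those labelled cKO, and at E16.5 HE pools had 1103.5 and 638.6 CPM of it and KO pools 1.55 and 1224.0 CPM. In those comparisons genotype and sex cannot be told apart, in whole or in part.

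On GRCm38, Neurog3 (ENSMUSG00000044312) lies at chr10:62133090-62134763 on the plus strand and Neurod1 (ENSMUSG00000034701) at chr2:79452521-79456751 on the minus strand. Chga (ENSMUSG00000021194) lies at chr12:102554969-102565028 and Chgb (ENSMUSG00000027350) at chr2:132781278-132795079, both on the plus strand. Gcg (ENSMUSG00000000394) lies at chr2:62474530-62483650, Cck (ENSMUSG00000032532) at chr9:121489824-121495694 and Sct (ENSMUSG00000038580) at chr7:141278330-141279133, all on the minus strand. Gip (ENSMUSG00000014351) lies at chr11:96024545-96030831 on the plus strand, Nts (ENSMUSG00000019890) at chr10:102481756-102490486 on the minus strand and Tac1 (ENSMUSG00000061762) at chr6:7554879-7565834 on the plus strand. All 10 are annotated as protein-coding.

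Neurog3, Sct and Gip are the members called for Rspondin dose in both genotypes with no block for culture, so the 250 bases before each start are shown, 5′ to 3′ on the gene's strand, from RefSeq GRCm38.p6. Capitals mark E-boxes, the letters CANNTG that basic helix-loop-helix factors such as Neurog3 and Neurod1 can bind. The windows are chr10:62132840-62133089 (plus strand) for Neurog3, chr7:141279134-141279383 (minus strand) for Sct and chr11:96024295-96024544 (plus strand) for Gip.
Neurog3: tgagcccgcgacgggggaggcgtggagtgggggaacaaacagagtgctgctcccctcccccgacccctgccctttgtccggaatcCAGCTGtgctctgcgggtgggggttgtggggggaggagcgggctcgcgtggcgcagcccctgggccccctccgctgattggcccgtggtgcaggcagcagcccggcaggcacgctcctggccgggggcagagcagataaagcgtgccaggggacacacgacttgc
Sct: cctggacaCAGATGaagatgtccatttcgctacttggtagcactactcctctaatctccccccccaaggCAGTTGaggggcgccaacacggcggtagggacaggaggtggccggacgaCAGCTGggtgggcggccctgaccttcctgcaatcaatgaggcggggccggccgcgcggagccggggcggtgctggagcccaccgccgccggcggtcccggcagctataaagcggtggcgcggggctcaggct
Gip: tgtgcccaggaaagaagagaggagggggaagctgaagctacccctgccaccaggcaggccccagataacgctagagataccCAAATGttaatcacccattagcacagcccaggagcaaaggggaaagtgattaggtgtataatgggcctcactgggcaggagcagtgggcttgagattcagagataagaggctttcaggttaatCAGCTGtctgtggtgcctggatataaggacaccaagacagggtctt
The E-box before Neurog3 begins at position -165 from the start, those before Sct at -242, -181 and -132, and those before Gip at -169 and -46.

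Gcg was called between gut regions and Cck between E18.5 and the adult, neither window holds an annotated exon, and both are shown for the same motif: chr2:62483654-62483903 (minus strand) for Gcg and chr9:121495695-121495944 (minus strand) for Cck.
Gcg: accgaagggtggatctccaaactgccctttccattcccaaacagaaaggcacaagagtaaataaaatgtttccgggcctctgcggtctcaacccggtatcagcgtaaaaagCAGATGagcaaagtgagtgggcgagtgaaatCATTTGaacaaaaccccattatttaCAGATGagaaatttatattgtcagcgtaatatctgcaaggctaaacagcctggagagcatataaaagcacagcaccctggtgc
Cck: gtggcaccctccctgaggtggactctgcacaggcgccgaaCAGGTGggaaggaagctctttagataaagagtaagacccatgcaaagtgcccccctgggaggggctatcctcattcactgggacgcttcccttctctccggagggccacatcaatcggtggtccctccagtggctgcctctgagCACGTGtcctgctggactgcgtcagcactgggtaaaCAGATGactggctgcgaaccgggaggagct
Each holds 3 E-boxes, at -139, -108 and -83 for Gcg and at -210, -66 and -30 for Cck. The RefSeq start can differ from the gene coordinates given here, and for Neurod1, Chgb, Nts and Tac1 the window overlaps an annotated exon. All 10 members have at least 1 E-box in this window, and 66% of 27025 promoters do. None of the 10 holds CTTTGA, the core of the TCF/LEF motif, on either strand, and 14% of those promoters do. A match is a description of the letters and shows no binding, and no match says only that the letters are absent from this window.

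Levels of different genes are compared per kilobase of exon. In E16.5 HE cells the granule protein gene Chgb led at 42.8 ± 3.83 CPM per kb (mean ± SD, n = 2), and Sct was next, well apart from it. Gip at 9.39 ± 2.88, Cck at 6.03 ± 0.84 and Neurog3 at 5.41 ± 2.96 CPM per kb were neighbours within their spread. Neurod1 at 0.247 ± 0.0648 and Nts at 0.22 ± 0.312 CPM per kb were last and did not differ beyond their spread. By E18.5 Chgb was at 12.2 ± 5.59, Cck at 9 ± 7.21 and Sct at 8.37 ± 1.64 CPM per kb, and those 3 overlapped within their spread. Gip, at 16.3 ± 22.5 CPM per kb, held the top place there through 1 embryo. In adult duodenum the order began with Gip at 21 ± 12.1, Sct at 13.7 ± 2.91 and Chgb at 12.4 ± 5.95 CPM per kb, which overlap. In adult ileum Gcg at 29.4 ± 28 CPM per kb had the highest mean, and Sct at 16 ± 15.6 and Chgb at 11.3 ± 7.61 CPM per kb lay within its spread.

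In WT cultures with Rspo1 or Rspo3 and in KO cultures with Rspo3 the highest mean was that of Chgb at the high dose and that of Gip at the low dose. With 100 ng/ml Rspo1, WT cultures had Chgb at 61.1 ± 41.1 CPM per kb (n = 3), then Gip at 32.4 ± 21.2, Chga at 25.3 ± 19.1 and Cck at 23.6 ± 8.93 CPM per kb, neighbours within their spread. With 5 ng/ml Rspo1, Gip led at 89.1 ± 30.8 CPM per kb, with Chgb at 60.8 ± 12.9 and Sct at 51 ± 21.8 CPM per kb within reach of its spread. Chgb came first at both doses in WT cultures with Rspo2 (63 and 88.8 CPM per kb) and in KO cultures with Rspo1 (57.5 and 65.1) and Rspo2 (42.8 and 75.3). In WT cultures with Rspo1 Neurog3 stood at 6.18 ± 2.57 CPM per kb at the high dose and at 1.55 ± 0.44 CPM per kb at the low dose. In WT cultures with 5 ng/ml Rspo3 Neurog3 came last of the 10, at 0.697 ± 0.175 CPM per kb, while Gip led at 107 ± 27.8 CPM per kb.

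**Figure D1:**
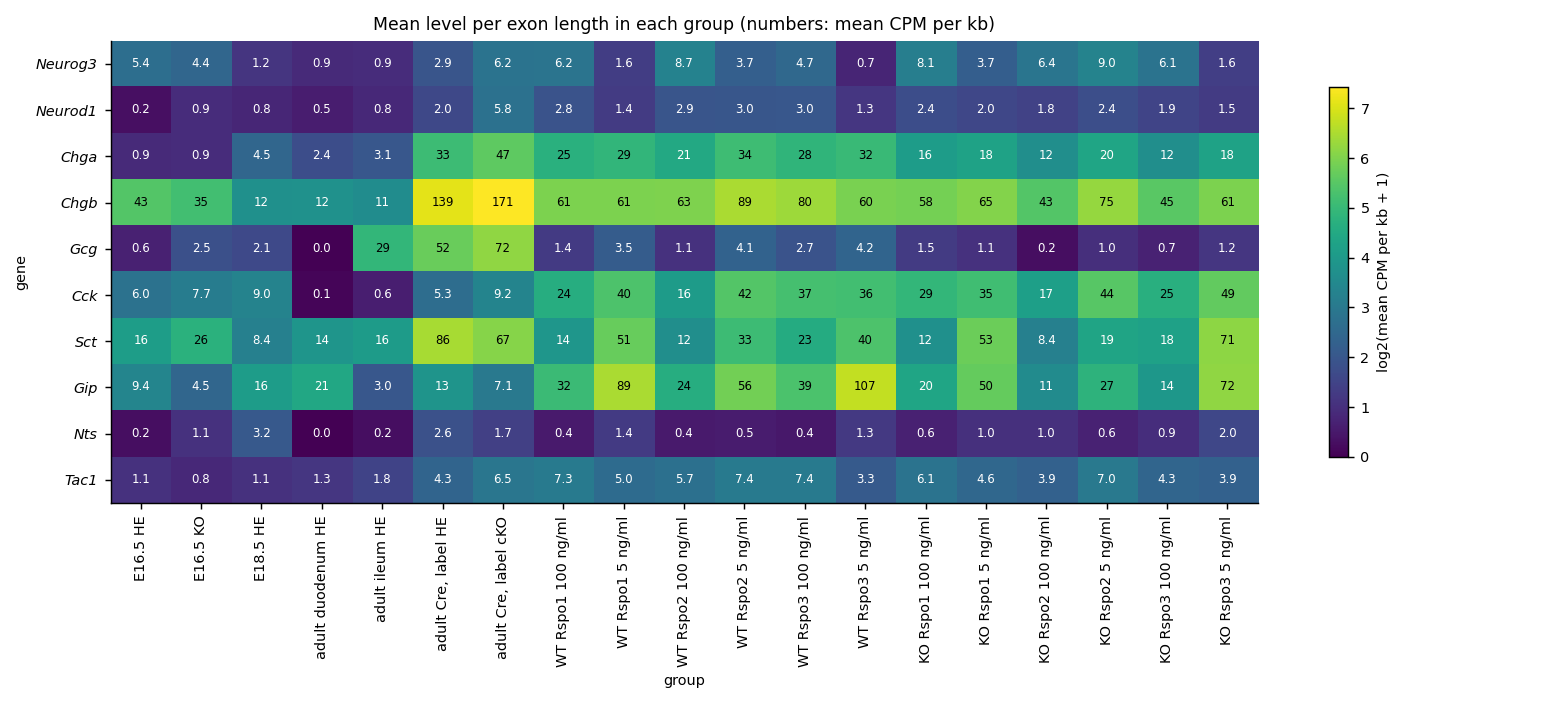
Mean level of each member per kilobase of exon in every group, printed as CPM per kb and coloured by log2 of that value plus 1. Chgb runs from 11.3 CPM per kb in adult ileum to 171 CPM per kb in the libraries labelled cKO, and Gcg from 0 in adult duodenum to 71.5 CPM per kb.

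Stage was asked first, with HE cells of the Lgr5-DTReGFP line at E18.5 against E16.5. Neurog3, the factor that commits progenitors to the endocrine fate, was at 12.55 and 5.55 CPM at E16.5 and at 2.55 and 1.55 CPM at E18.5. Both E18.5 embryos lay below both E16.5 pools. Neurod1, which acts after Neurog3 in maturing cells, was at 0.8 and 0.55 CPM at E16.5, which is 1 read in each pool, and at 1.65 and 2.45 CPM at E18.5. Its E18.5 values were higher without overlap, although the E16.5 side rests on those 2 reads. On the log2(CPM + 1) scale, which understates the change of a gene at a few CPM, Neurog3 fell by 1.65 (SE 0.45, adjusted p = 0.0254) and Neurod1 rose by 0.86 (SE 0.33, adjusted p = 0.0750).

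The granins parted between those ages. Chga, which encodes chromogranin A, was at 3.15 and 1.55 CPM at E16.5 and at 6.95 and 17.75 CPM at E18.5. Chgb, which encodes chromogranin B, was at 109.75 and 124.6 CPM at E16.5 and at 22.6 and 44.25 CPM at E18.5. Chga was thus higher in both E18.5 embryos and Chgb lower in both, with no overlap for either. Chga rose by 1.91 (SE 0.50, adjusted p = 0.0220) and Chgb fell by 1.85 (SE 0.29, adjusted p = 0.00396).

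Of the hormones, Gcg, the source of glucagon-like peptides in the gut, was at 0.8 and 1.05 CPM at E16.5 (1 and 2 reads) and at 2.8 and 3.55 CPM at E18.5. Nts, which encodes neurotensin, was at 0.0 and 0.55 CPM at E16.5 (0 and 1 reads) and at 2.55 and 5.5 CPM at E18.5. Sct, which encodes secretin, was at 8.65 and 12.65 CPM at E16.5 and at 4.65 and 6.15 CPM at E18.5. Gcg and Nts were higher in both E18.5 embryos and Sct was lower in both, without overlap. Nts rose by 1.95 (SE 0.43, adjusted p = 0.0126), Gcg rose by 1.11 (SE 0.33, adjusted p = 0.0331) and Sct fell by 0.85 (SE 0.33, adjusted p = 0.0720). For Nts, Gcg and Neurod1, with 0 to 2 reads per E16.5 pool, these sizes depend on the 1 CPM added before the log. Nts and Neurod1 passed the filter only through the E18.5 embryos, where they are high, and with no filter the adjusted p was 0.0720 for Nts and 0.103, not called, for Neurod1. Cck, which encodes cholecystokinin, was at 8.65 and 7.1 CPM at E16.5 and at 5.1 and 18.4 CPM at E18.5. Gip, which encodes the incretin peptide of the upper gut, was at 7.85 and 5.05 CPM at E16.5 and at 22.15 and 0.25 CPM at E18.5. Tac1, the source of substance P, was at 4.75 and 2.55 CPM at E16.5 and at 0.95 and 6.4 CPM at E18.5. For these last 3 the E18.5 embryos lay on both sides of the E16.5 pools, and none of the 3 was called.

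A member is called here when limma gives a false discovery rate of at most 0.1 over all genes tested and a change of at least 1.5-fold. All 10 members passed the filter on low values in this comparison. Of these 7 were called, 4 higher and 3 lower at E18.5, where 49.6% of all genes tested were called. Among those called higher, Nts and Neurod1 passed only through the E18.5 embryos, and Gcg would not have passed without them. The tests of these genes add nothing to their values. The median log2 fold change of the members was 0.02 and that of all genes tested 0.23. Without either E18.5 embryo 0 of the 10 were called, and without E16.5 HE pool 2 only Neurog3, Gcg and Nts were. Without E16.5 HE pool 1 the calls of Chga and Nts were lost, with no filter those of Neurod1, Chga and Sct, and with all 15 sorted libraries in the fit those of Neurod1, Gcg and Sct. Markers of cells other than epithelium also differed between these ages: summed over 8 genes, mesenchymal markers were at 1786 and 819.4 CPM in the E16.5 HE pools, with Col3a1 the highest in pool 1 at 661.5 CPM, and at 77.7 and 82.15 CPM at E18.5. Summed over 10 genes, enteric neuron markers were at 24.5 and 16.45 CPM at E16.5 and at 4.2 and 8.7 CPM at E18.5. In E16.5 HE pool 1 the highest of these was Ret at 11 CPM. Erythroid markers summed to between 1059 and 1180 CPM at E16.5 and to between 26.9 and 54.95 CPM at E18.5. Stem markers summed to between 1494 and 1538 CPM at E16.5 and to between 4711 and 5101 CPM at E18.5, 8 of 10 called higher and 1 lower. The part of these cells in the members' changes, the fall of Chgb among them, was not tested.

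Other enteroendocrine genes from fixed lists were read beside the members. Of 10 tested transcription factors 1 was called higher and 4 lower at E18.5, among them Insm1, an early endocrine factor, from a mean of 17.0 to 1.85 CPM (log2 fold change -2.74, adjusted p = 0.00348), and Etv1 (-2.44). Of 14 tested genes for granules and hormone processing 4 were higher and 1 lower, the last being Cpe, which trims prohormones (-2.26), while Rab3c (1.37) and Pam (1.14) were higher. Ghrl, which encodes ghrelin and was the only tested gene of the list of 10 other gut hormones, rose from 0.775 to 123 CPM (log2 fold change 6.28, adjusted p = 3.46e-04). At that E16.5 mean Ghrl could not have passed the filter without the E18.5 embryos, where it is high. Its test therefore adds nothing to the means.

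The next step in age set adult HE cells, duodenum and ileum together, against E18.5. Cck was at 0.2 and 0.0 CPM in duodenum and at 0.5 and 0.95 CPM in ileum, against 5.1 and 18.4 CPM in the embryos. Nts was at 0.0 in both duodenum libraries and at 0.5 and 0.0 CPM in ileum, against 2.55 and 5.5 CPM. All 4 adult libraries lay below both embryos for each of these hormones, with 4 reads or fewer of either gene in any adult library. Cck fell by 2.99 (SE 0.48, adjusted p = 0.00669) and Nts fell by 2.12 (SE 0.33, adjusted p = 0.00575) on the log2(CPM + 1) scale, sizes that depend on the 1 CPM added. Both passed the filter only through the embryos, where they are high, and with no filter the adjusted p was 0.0155 for Cck and 0.00986 for Nts. These 2 of 10 members were called, beside 19.0% of all genes tested, and the medians were -0.11 for the members and -0.04 for all genes. Both calls held in every alternative tried, but both genes entered through the embryos, so their tests add nothing to these values.

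Regulators and granins were not called between E18.5 and the adult. Neurog3 was at 2.15 and 0.7 CPM in duodenum and at 2.2 and 0.95 CPM in ileum, a range that overlaps the embryos. Neurod1 lay between 1.35 and 2.75 CPM in the 4 adult libraries, Chga between 3.6 and 11.7 CPM and Chgb between 16.1 and 45.6 CPM, and each overlapped the embryos. Sct, Gip, Gcg and Tac1 overlapped as well. Sums of Paneth markers over 8 genes were 168.5 and 155.7 CPM in the embryos, 17510 and 17770 CPM in adult duodenum and 11840 and 29030 CPM in adult ileum, with Lyz1 the highest at 8332.45 CPM in duodenum of mouse 1. Tuft markers summed to 3.4 and 7.1 CPM in the embryos, to 2458 and 4129 CPM in duodenum and to 305.7 and 580.9 CPM in ileum. Immune markers went from 26.1 and 20.3 CPM to between 1512 and 3167 CPM, nearly all of it Lyz2, and mesenchymal markers from 77.7 and 82.15 CPM to 4.7 CPM or less. The part of these cell types was not tested. The list of transcription factors gave 2 of 11 higher, St18 (log2 fold change 3.75) and Foxa2 (1.81). The list for granules and processing gave 1 of 16 higher, the convertase gene Pcsk1 (1.69), and 3 lower, with Scg2 (-2.11) and Pam (-0.95) among them. St18 and Foxa2, at means of 0.700 and 0.925 CPM in the embryos, could not have passed the filter without the adult libraries. Scg2, at a mean of 0.300 CPM in the adult, could not have passed without the embryos. The tests of St18, Foxa2 and Scg2 add nothing to their values. Ghrl fell from 123 to 4.01 CPM (log2 fold change -4.64, adjusted p = 1.94e-05), 1 of 2 other gut hormones tested.

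**Figure D2:**
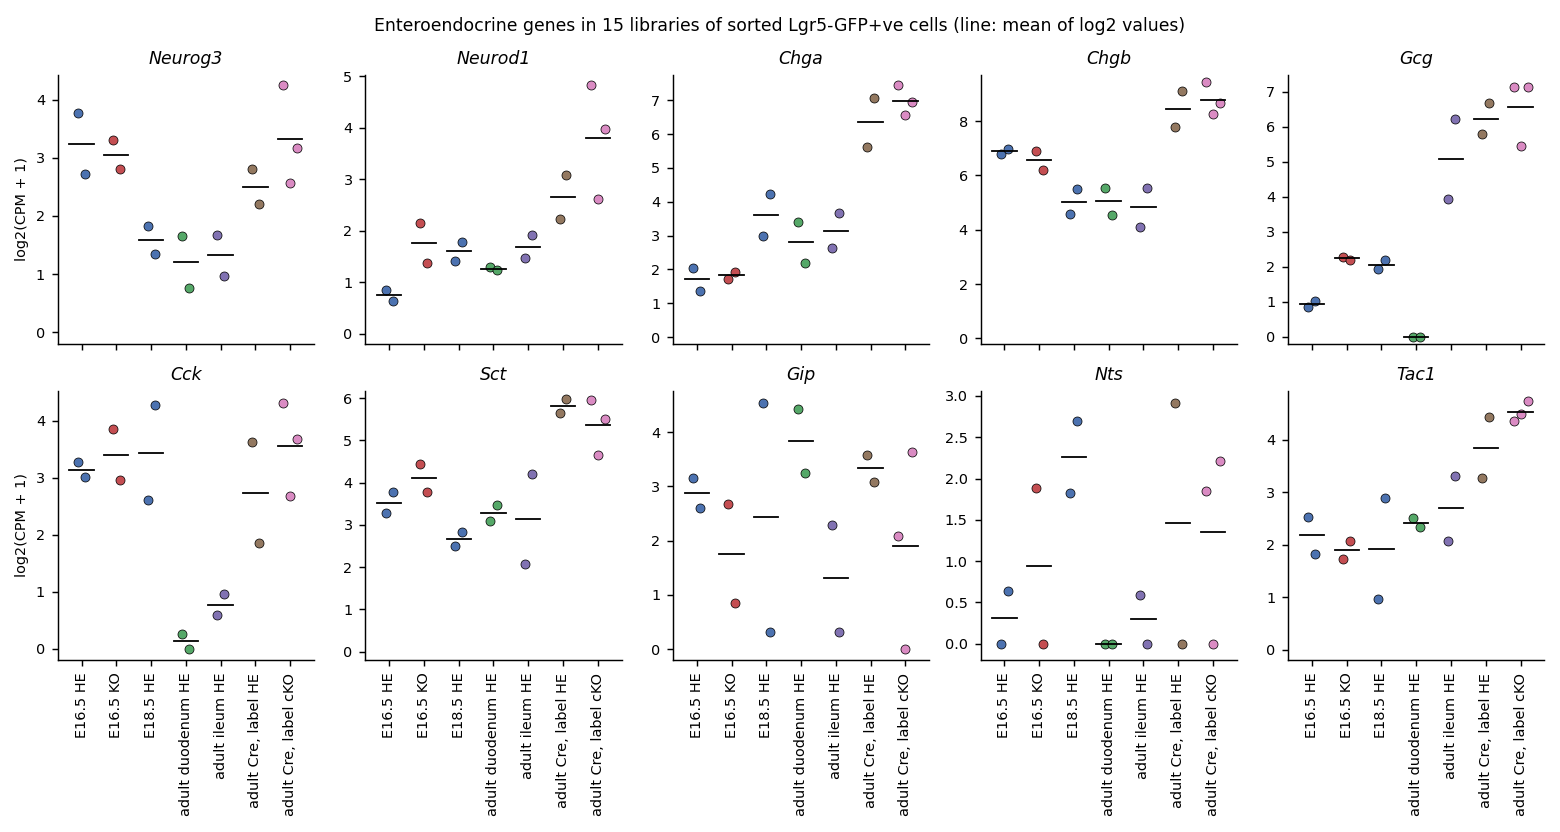
Log2(CPM + 1) of the 10 members in each of the 15 sorted libraries (points), with a line at the mean of each group. Gcg is at 0 in both duodenum libraries and at 14.4 and 73.5 CPM in ileum, and Chgb at E16.5 HE (109.75 and 124.6 CPM) lies above E18.5 (22.6 and 44.25 CPM).

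Gut region was compared within the adult Lgr5-DTReGFP mice, ileum against duodenum. Gcg, made by L cells that become more frequent along the gut, was at 0 in both duodenum libraries and at 14.4 and 73.5 CPM in ileum. Gip, made by K cells of the upper gut, was at 20.35 and 8.55 CPM in duodenum and at 3.9 and 0.25 CPM in ileum. Each region was thus apart from the other for both hormones, Gcg high in ileum and Gip high in duodenum. Against a floor of 3 reads in the duodenum library of the same mouse, a floor that covers counting error only, Gcg was at least 26.9-fold higher in ileum of mouse 1 and 109-fold in mouse 2. The means (44 CPM over 0.604 CPM) give 72.8-fold, which rests largely on mouse 2. Its log2 fold change was 5.08 (SE 0.66, adjusted p = 0.00848), and that of Gip was -2.53 (SE 0.66, adjusted p = 0.0927). Gcg passed the filter on low values only through the ileum libraries, where it is high, so its test adds nothing to these values. Gip, at 3.9 and 0.25 CPM in ileum, would not have passed without the duodenum libraries, where it is high. The test of Gip adds nothing to its values either.

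Sct was at 7.5 and 10.15 CPM in duodenum and at 3.2 and 17.4 CPM in ileum, so the ileum libraries lay on both sides. Chga and Chgb overlapped between regions too, as did Neurog3 and Tac1. Neurod1 was at 1.45 and 1.35 CPM in duodenum and at 1.75 and 2.75 CPM in ileum, apart by little and not called (log2 fold change 0.42, adjusted p = 0.608). Cck and Nts fell under the filter, which left 8 members tested, and 2 of them were called, 1 in each direction, beside 6.88% of all genes tested. Without either duodenum library, or with no filter, neither was called, and without ileum mouse 2 only Gcg was. With a pseudocount of 0.1, or with all 15 sorted libraries in the fit, only Gcg was called.

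Among the other enteroendocrine genes of the region comparison, Pyy, a hormone that L cells make beside the products of Gcg, was at 0 in duodenum and at a mean of 2.72 CPM in ileum (log2 fold change 1.85, adjusted p = 0.0377). It passed the filter only through ileum, where it is high, so its test adds nothing to these values. It was 1 of 2 other gut hormones tested. Of the transcription factors St18 (-2.13) was lower in ileum and Etv1 (1.40) and Foxa1 (1.09) higher, 3 of 11 tested. Etv1, at 0 in duodenum and at a mean of 1.68 CPM in ileum, also passed the filter only through ileum. Its test adds nothing to these means either. Of 14 tested genes for granules and processing, Abcc8 (-1.74) and Cacna1a (-1.72) were among 3 lower, and Cpe (1.09) was the 1 higher. Tuft cell markers summed to 2458 and 4129 CPM in duodenum and to 305.7 and 580.9 CPM in ileum, with Dclk1 the highest in duodenum of mouse 1 at 656.4 CPM. Enterocyte sums lay between 734.5 and 884.5 CPM in duodenum and between 252.3 and 304.2 CPM in ileum. Goblet sums lay between 1577 and 1733 CPM in duodenum and between 2254 and 8316 CPM in ileum. Secretory progenitor sums were at 106.5 to 120.5 CPM in duodenum and at 136.7 to 331.9 CPM in ileum. The part of these cells was not tested.

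Lgr5 genotype in sorted cells was asked at E16.5, KO against HE. Neurog3 was at 8.85 and 6.0 CPM in the KO pools, within the range of the HE pools. Neurod1 was at 3.45 and 1.6 CPM in the KO pools, above 0.8 and 0.55 CPM in the HE pools, with 9 and 4 reads against 1 and 1. Gcg was at 3.85 and 3.6 CPM in the KO pools, above 0.8 and 1.05 CPM, with 10 and 9 reads against 1 and 2. Both genes were higher in both KO pools, by small counts, and neither was called. Neurod1 had a log2 fold change of 1.03 (SE 0.53, adjusted p = 0.412), and Gcg had means of 3.72 and 0.925 CPM (SE 0.48 on the log2 scale, adjusted p = 0.285). With 1 or 2 reads per HE pool, either size depends on the 1 CPM added before the log. Neurod1 passed the filter only through the KO pools, where it is high, and Gcg would not have passed without them. The tests of these genes add nothing to their values.

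Sct was at 20.7 and 12.75 CPM in the KO pools, just above the HE pools, and Chgb at 119.5 and 72.3 CPM, Cck at 13.45 and 6.75 CPM, Chga at 2.3 and 2.8 CPM and Tac1 at 2.3 and 3.2 CPM overlapped the HE pools. Gip was at 5.4 and 0.8 CPM and overlapped as well. Nts was at 2.7 and 0.0 CPM and fell under the filter. By limma 0 of 9 tested members were called, beside 0.527% of all genes tested, and 1 of the 9, Gcg, had an unadjusted p under 0.05. By edgeR on reads recovered from the CPM, 0 of 5 tested members were called (Neurog3, Chgb, Cck, Sct and Gip), among 347 of 12453 genes called. A p that misses the threshold does not show that values did not differ. The members' median log2 fold change was 0.12 and that of all genes 0.08, and 0 of 15 transcription factors, 0 of 11 granule genes and 0 of 2 other hormones were called. Lgr5 itself fell by 0.97 (SE 0.18, adjusted p = 0.0795), and enterocyte markers summed to 896.7 and 764.9 CPM in the KO pools against 2133 and 1632 CPM in the HE pools, 5 of 8 called lower. Mesenchymal markers summed to 178.3 and 496.4 CPM in the KO pools against 1786 and 819.4 CPM, 1 of 8 called lower (median -1.97), and erythroid markers to 309.5 and 492 CPM against 1180 and 1059 CPM, 3 of 6 called lower. The part of these cells in the values of the members was not tested.

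In adult ileum of the Lgr5-Cre line Chgb, Chga and Gcg were plentiful. Chgb was at 216.35 and 544.65 CPM in the libraries labelled HE and at 695.25, 305.4 and 405.65 CPM in those labelled cKO. Gcg was at 54.25 and 100.85 CPM in the former and at 139.0, 42.9 and 138.55 CPM in the latter. Neurod1 was at 3.65 and 7.5 CPM in the former and at 27.35, 5.1 and 14.75 CPM in the latter. The labelled groups overlapped for each of these genes, and Neurog3, at 6.0 and 3.6 against 18.1, 4.9 and 7.95 CPM, overlapped as well. Chga, Sct and Tac1 also did, as did Gip, at 10.95 and 7.5 against 3.25, 0.0 and 11.35 CPM, with Chga at 48.05 and 133.6 CPM in the libraries labelled HE and at 174.35, 93.95 and 121.3 CPM in those labelled cKO. By limma 0 of 10 members were called, 0 had an unadjusted p under 0.05, and 0.0504% of all genes tested were called. No gene of the 3 other enteroendocrine lists was called, of 18, 20 and 3 tested.

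The genotypes of these libraries are in doubt. A listing in the study's supplementary data gives the same values for all 859 genes it holds but another genotype for 2 of the 5 libraries: the library labelled HE mouse 1 is cKO there, and the library labelled cKO mouse 2 is HE there. By that listing Nts was at 0.0 in both HE libraries and at 6.55, 2.6 and 3.65 CPM in the cKO libraries, and Cck was at 2.6 and 5.45 CPM against 11.3, 18.85 and 11.85 CPM. Both hormones were then higher in all 3 cKO libraries without overlap. With those genotypes Nts had a log2 fold change of 2.33 (adjusted p = 0.0278) where the labels gave -0.10, and Cck had 1.60 (adjusted p = 0.0560) where they gave 0.83. By that listing Nts passed the filter only through the cKO libraries, where it is high, so its test adds nothing to these values. The size for Nts also depends on the 1 CPM added before the log. Over all alternatives of this comparison the adjusted p ran from 0.0278 to 1 for Nts and from 0.0560 to 1 for Cck. Those 2 of 10 members were the ones called, beside 3.92% of all genes tested. Lgr5 by that listing had means of 98.4 CPM in HE and 77.5 CPM in cKO libraries, with overlap, where the labels gave 70.2 and 96.4 CPM. Xist was then at 0.65 and 1161.55 CPM in HE and at 1.7, 1298.15 and 1551.2 CPM in cKO libraries, so sex followed genotype by the labels only. Which set of genotypes is right was not tested.

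Cells from ileum of the Lgr5-Cre line held far more enteroendocrine RNA than ileum cells of the Lgr5-DTReGFP line. The 10 members summed to 414.8 to 1159 CPM in the 5 Lgr5-Cre libraries and to 50.9 and 162 CPM in the Lgr5-DTReGFP ileum libraries. Goblet markers summed to 7122 to 13700 CPM in the former and to 2254 and 8316 CPM in the latter, and Paneth markers to 2707 to 7161 CPM and to 11840 and 29030 CPM. Line, tamoxifen, harvest and sort gate (eGFP alone, or eGFP with tdTomato) differ together between these sets and cannot be told apart, so no test was made.

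Rspondin dose was asked in organoids, 100 against 5 ng/ml, for each ligand and genotype. Neurog3 in WT10, WT5 and WT30 was at 6.85, 9.05 and 15.15 CPM with 100 ng/ml Rspo1 and at 2.15, 2.2 and 3.45 CPM with 5 ng/ml. Rspo2 gave Neurog3 values of 12.2, 7.35 and 24.2 CPM at the high dose and 6.55, 5.45 and 6.75 CPM at the low dose. Rspo3 gave values of 7.75, 6.0 and 9.8 CPM at the high dose and 1.05, 0.95 and 1.5 CPM at the low dose. Every WT library at the high dose lay above every WT library at the low dose of the same ligand. On the log2(CPM + 1) scale Neurog3 rose with dose by 1.61 (SE 0.35, adjusted p = 6.47e-04) with Rspo1, by 0.96 (SE 0.35, adjusted p = 0.0402) with Rspo2 and by 2.02 (SE 0.35, adjusted p = 5.42e-05) with Rspo3, each time in 3 of 3 WT cultures.

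In KO7 and KO2 Neurog3 was at 11.35 and 15.7 CPM with 100 ng/ml Rspo1 and at 3.7 and 8.6 CPM with 5 ng/ml. Under Rspo3 Neurog3 stood at 8.25 and 12.05 CPM at the high dose and at 1.7 and 3.7 CPM at the low dose. Under Rspo2 Neurog3 stood at 11.1 and 10.45 CPM at the high dose and at 9.6 and 20.4 CPM at the low dose. The doses did not overlap with Rspo1 or Rspo3, and with Rspo2 the low-dose libraries lay on both sides, KO2 being the culture with high Lgr5. Neurog3 rose by 1.62 (SE 0.43, adjusted p = 0.00399) with Rspo3, missed the threshold with Rspo1 (means of 13.5 and 6.15 CPM, SE 0.43, adjusted p = 0.0589) and was at -0.36 (adjusted p = 0.967) with Rspo2. The change with Rspo1 was called higher with the culture as a block. Over the 15 pairs of culture and ligand Neurog3 was higher at 100 ng/ml in 14, KO2 with Rspo2 being the exception.

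Neurod1 in WT cultures was at 6.45, 5.5 and 10.7 CPM with 100 ng/ml Rspo1 and at 3.8, 3.55 and 4.5 CPM with 5 ng/ml. Under Rspo3 Neurod1 stood at 7.2, 5.3 and 12.3 CPM at the high dose and at 3.9, 2.15 and 4.35 CPM at the low dose. With Rspo2 it was at 7.15, 4.65 and 12.05 CPM at the high dose and at 8.85, 5.25 and 10.2 CPM at the low dose. It was thus higher at the high dose without overlap with Rspo1 and Rspo3, and overlapped with Rspo2. Neurod1 rose by 0.75 (SE 0.30, adjusted p = 0.0432) with Rspo1 and by 1.02 (SE 0.30, adjusted p = 0.00760) with Rspo3, in 3 of 3 WT cultures each. In the 12 KO libraries it ran from 3.85 to 7.4 CPM with a median of 5.4 CPM, and no dose effect was called.

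**Figure D3:**
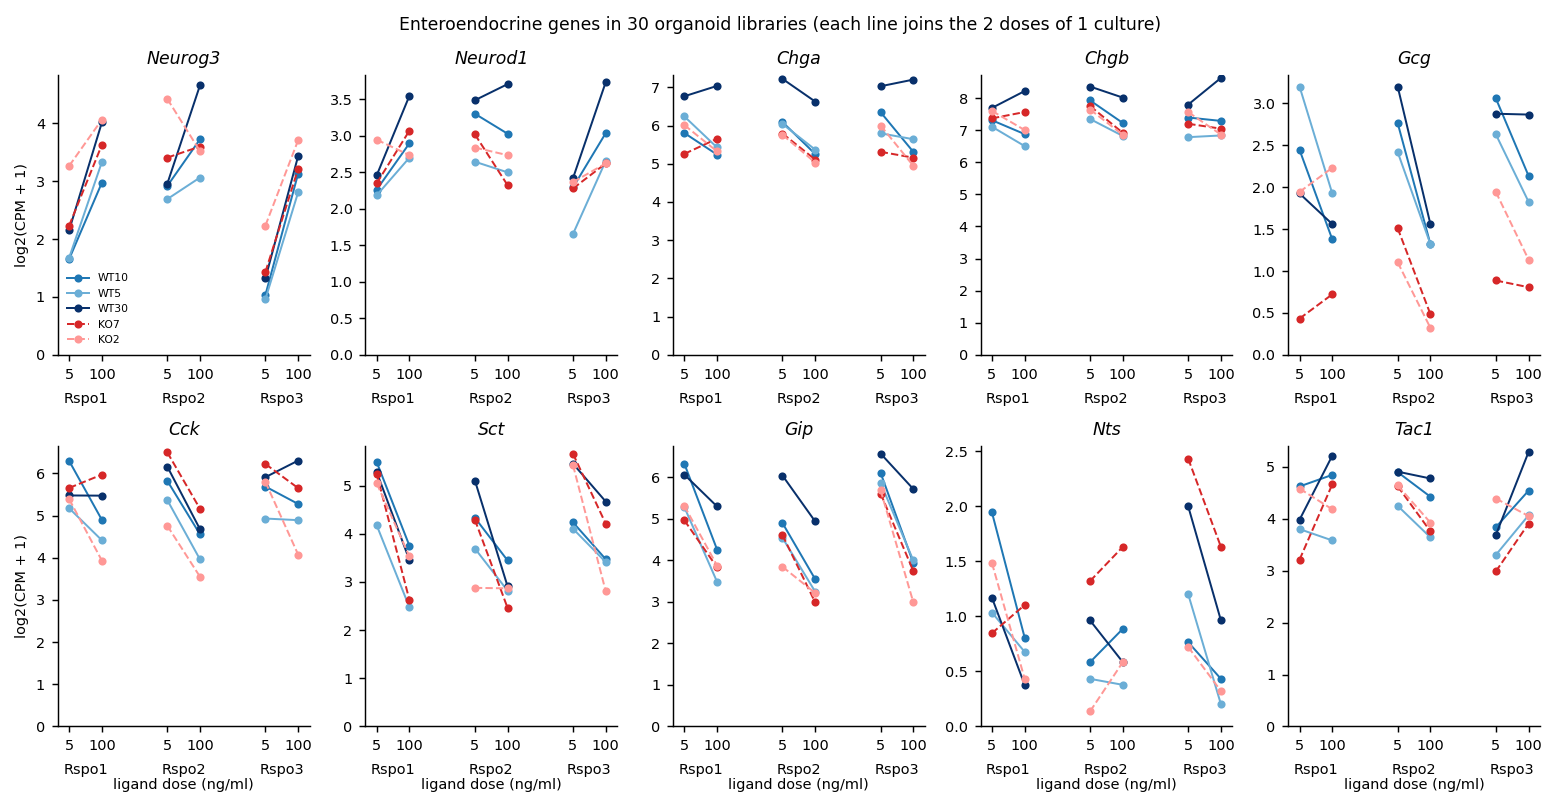
Log2(CPM + 1) of each member at 5 and 100 ng/ml of each ligand, a line joining the 2 doses of 1 culture (WT solid, KO dashed). Neurog3 is higher at 100 ng/ml in 14 of 15 pairs, and Sct and Gip are lower in 15 of 15.

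With no block and all libraries in the fit the granins showed no called change with dose. With the culture as a block Chga (-0.70) and Chgb (-0.52) were called lower in WT cultures with Rspo2, and without WT30 Chga (-0.69) was called lower in WT cultures with Rspo1. Chga ran from 29.85 to 146.3 CPM (median 39.05) in the 15 libraries at 100 ng/ml and from 37.3 to 148.25 CPM (median 63.55) at 5 ng/ml, lower at the high dose in 12 of 15 pairs. Chgb ran from 89.65 to 393.85 CPM (median 127.2) at the high dose and from 108.95 to 326.75 CPM (median 187.8) at the low dose, lower at the high dose in 11 of 15 pairs. WT30 stood above the other cultures: Chga averaged 127 CPM in WT30 and 41.4 to 54.2 CPM in the other 4 cultures, and Chgb 284 CPM in WT30 and 120 to 164 CPM in the others.

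Sct in WT cultures was at 12.45, 4.55 and 9.95 CPM with 100 ng/ml Rspo1 and at 43.8, 17.05 and 37.8 CPM with 5 ng/ml. With Rspo2 it was at 9.9, 6.05 and 6.5 CPM at the high dose and at 19.15, 11.95 and 33.45 CPM at the low dose. With Rspo3 it was at 10.1, 9.65 and 24.45 CPM at the high dose and at 17.85, 16.2 and 42.85 CPM at the low dose. Sct was low at the high dose without overlap for Rspo1 and Rspo2, and overlapped through WT30 for Rspo3. It fell by 1.75 (SE 0.49, adjusted p = 0.00470) with Rspo1 and by 1.32 (SE 0.49, adjusted p = 0.0416) with Rspo2, and its change of -0.75 with Rspo3 was not called (adjusted p = 0.210), although it was lower in 3 of 3 cultures each time.

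In KO cultures Sct was at 5.15 and 10.55 CPM with 100 ng/ml Rspo1 and at 36.75 and 32.0 CPM with 5 ng/ml. Under Rspo3 Sct averaged 11.8 CPM at the high dose, with KO2 at 6.0 CPM, and stood at 49.55 and 41.95 CPM at the low dose. With Rspo2 it was at 4.5 and 6.3 CPM at the high dose and at 18.6 and 6.35 CPM at the low dose. All pairs were lower at the high dose, by very little in KO2 with Rspo2. Sct fell by 2.07 (SE 0.60, adjusted p = 0.0127) with Rspo1 and by 2.03 (SE 0.60, adjusted p = 0.00837) with Rspo3, in 2 of 2 KO cultures.

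Gip in WT cultures was at 18.2, 10.2 and 38.45 CPM with 100 ng/ml Rspo1 and at 79.45, 38 and 66.1 CPM with 5 ng/ml. With Rspo2 it was at 10.7, 8.5 and 29.7 CPM at the high dose and at 28.9, 22.35 and 65.1 CPM at the low dose. With Rspo3 it was at 14.35, 15 and 51.75 CPM at the high dose and at 68.05, 57.35 and 94.4 CPM at the low dose. Within each culture Gip was low at the high dose, and only with Rspo3 did the groups not overlap, since WT30 ran high throughout. Gip fell by 1.54 (SE 0.50, adjusted p = 0.0125) with Rspo1 and by 1.63 (SE 0.50, adjusted p = 0.00887) with Rspo3, and with Rspo2 it missed the threshold (log2 fold change -1.25, adjusted p = 0.0562). The change with Rspo2 was called with the culture as a block.

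In KO cultures Gip was at 12.4 and 6.95 CPM with 100 ng/ml Rspo3 and at 47.95 and 50.7 CPM with 5 ng/ml. With Rspo1 it was at 13.25 and 13.7 CPM at the high dose and at 30.3 and 38.8 CPM at the low dose, and with Rspo2 at 6.95 and 8.3 CPM and at 23.45 and 13.4 CPM. No KO group at the high dose overlapped the low dose of its ligand. Gip fell by 2.29 (SE 0.61, adjusted p = 0.00410) with Rspo3, and its changes of -1.29 with Rspo1 (adjusted p = 0.115) and -1.13 with Rspo2 (adjusted p = 0.776) were not called. The change with Rspo1 was called with the culture as a block.

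Gcg was scarce in organoids, from 0.25 to 8.2 CPM with a median of 2.675 CPM over the 30 libraries. In WT cultures it was at 1.5, 1.5 and 1.95 CPM with 100 ng/ml Rspo2 and at 5.8, 4.35 and 8.2 CPM with 5 ng/ml, low at the high dose without overlap. It fell by 1.39 (SE 0.40, adjusted p = 0.0106) there, in 3 of 3 cultures, and with Rspo1 it missed the threshold (log2 fold change -0.90, adjusted p = 0.0595). The change of Gcg with Rspo1 was called with the culture as a block. Tac1 in WT cultures was at 22.2, 15.7 and 37.8 CPM with 100 ng/ml Rspo3 and at 13.25, 8.85 and 11.85 CPM with 5 ng/ml, high at the high dose without overlap. It rose by 1.02 (SE 0.42, adjusted p = 0.0477), in 3 of 3 cultures, and over all 15 pairs it was lower at the high dose in 8 and higher in 7. Cck ran from 10.7 to 77.9 CPM (median 28.65) at the high dose and from 26.05 to 89.3 CPM (median 50.5) at the low dose, lower at the high dose in 13 of 15 pairs and called in none of the 6 dose comparisons, the nearest being WT cultures with Rspo2 (log2 fold change -1.39, adjusted p = 0.0532). With the culture as a block Cck was called lower there, in WT cultures with Rspo1 (-0.72) and in KO cultures with Rspo3 (-1.15). Nts stayed at 4.4 CPM or less in every organoid library and was called in some alternatives, among them that block and the fits without KO7 or KO2, lower in WT cultures with Rspo1 (-0.76) and with Rspo3 (-0.79).

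All 10 members passed the filter in organoids, where a gene is called at a false discovery rate of at most 0.05 in a fit of all 30 libraries. In WT cultures 4 of 10 members were called with Rspo1 (Neurog3 and Neurod1 higher, Sct and Gip lower), beside 53.4% of all genes. With Rspo2 3 were called (Neurog3 higher, Gcg and Sct lower), beside 33.4%, and with Rspo3 4 (Neurog3, Neurod1 and Tac1 higher, Gip lower), beside 51.4%. In KO cultures 1 was called with Rspo1 (Sct lower), beside 29.8%, and with Rspo3 3 (Neurog3 higher, Sct and Gip lower), beside 44.5%. With Rspo2 0 of 10 were called in KO cultures by limma and 0 had an unadjusted p under 0.05, beside 0.115% of all genes, and the count was also 0 without the KO2 library at 5 ng/ml. So many genes moved with dose that the members' counts are near or under the background.

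The members' medians were -0.54, -0.61 and -0.18 in WT cultures with Rspo1, Rspo2 and Rspo3, and -0.17, -0.80 and -0.52 in KO cultures, where the medians of all genes were 0.28, 0.17, 0.24, 0.19, 0.04 and 0.24. Scaling by TMM moves the median of all genes by -0.27 in WT cultures with Rspo1, by -0.19 with Rspo2 and with Rspo3, by -0.20 in KO cultures with Rspo1 and by -0.21 with Rspo3. The share of called genes that were higher at 100 ng/ml then drops from 76.6% to 48.7%, from 72.7% to 42.3%, from 73.4% to 54.1%, from 73.6% to 46.9% and from 73.6% to 52.9%, in that order. Under TMM the calls of Neurod1 with Rspo1 (0.46), Neurog3 with Rspo2 (0.74) and Tac1 with Rspo3 (0.78) in WT cultures were lost, calls of Gcg with Rspo1 (-1.15) and of Cck (-1.62) and Gip (-1.48) with Rspo2 were added, no called member turned, and Chgb, uncalled, turned sign with Rspo3 in WT cultures.

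Each culture was grown in all 6 conditions, so the culture can also be taken as a block. In WT cultures 7 members were then called with Rspo1, adding Gcg, Cck and Nts, all lower, beside 64.1% of all genes. With Rspo2 7 were called, adding Chga, Chgb, Cck and Gip, all lower, beside 47.5%, and with Rspo3 5, adding Nts, lower, beside 61.8%. In KO cultures 3 were called with Rspo1, adding Neurog3, higher, and Gip, lower, beside 43.8%, and with Rspo3 4, adding Cck, lower, beside 55.1%. In these fits the hormones that were called all fell with dose except Tac1, and the regulators that were called rose. Some calls rest on single cultures. In WT cultures with Rspo1 that of Neurod1 was lost with no filter and without any culture but WT5, and that of Gip without WT10 (-1.28). With Rspo2 all 3 calls were lost without WT10 or without WT30, and with no filter only Gcg kept its call. That of Neurog3 was also lost with only the libraries of those 2 groups in the fit (adjusted p = 0.0641). With Rspo3 that of Tac1 was lost without WT10 or WT30 and with no filter, and that of Gip without WT10 (-1.36). In KO cultures that of Sct with Rspo1 was lost without KO7 (-1.51), and with Rspo3 those of Sct (-1.45) and Gip (-1.87) were lost without KO2 and that of Neurog3 (1.47) without KO7.

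**Figure D4:**
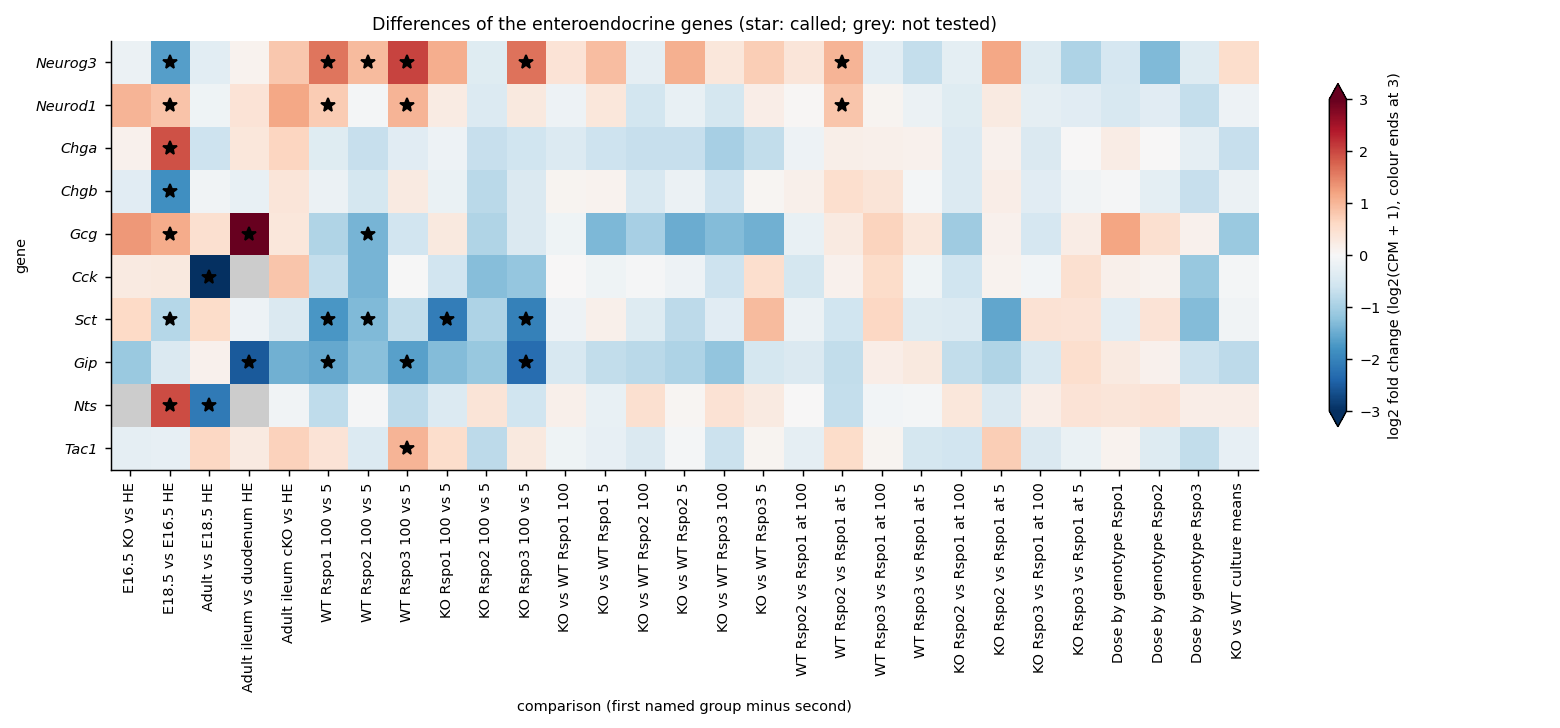
Log2 fold change of each member, on log2(CPM + 1), in all 29 comparisons, with stars at called members and grey where a member was not tested; colour ends at 3 in either direction. With dose Neurog3 reaches 2.02 (WT, Rspo3) and Gip -2.29 (KO, Rspo3).

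Whether the dose effect differed between genotypes was tested directly, as the dose effect in KO minus that in WT cultures. By limma 0 of 10 members were called for Rspo1 (0% of all genes), 0 for Rspo2 (0.439%) and 0 for Rspo3 (0%), and 0, 1 and 0 of them had an unadjusted p under 0.05. That 1 was Neurog3 with Rspo2, at -1.32 (SE 0.56, adjusted p = 0.323). With the culture as a block it was called at -1.32 (adjusted p = 0.0381), 1 of 10 members beside 3.97% of all genes, and without the KO2 library at 5 ng/ml it was at -1.08 (adjusted p = 0.293); over all alternatives the adjusted p ran from 0.0381 to 1. Lgr5 itself differed in that test, at -3.51 (SE 0.78, adjusted p = 0.0434), a call that was lost without that library (-2.47, adjusted p = 0.476) and under TMM (-3.36, adjusted p = 0.0565). So the KO calls that are missing beside WT calls for Neurod1, Gcg and Tac1 are not shown to be differences between genotypes.

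Marker sums of other cell types moved with dose as well. In WT10, WT5 and WT30 with Rspo1, 10 stem markers summed to 2972, 3738 and 3072 CPM at the high dose and to 527.9, 583.2 and 526.5 CPM at the low dose, with Slc12a2 the highest in WT10 at 1309.25 CPM. Enterocyte markers summed to 3306, 3527 and 4120 CPM and to 8167, 7918 and 8519 CPM, with Alpi the highest in WT10 at the low dose at 1847.3 CPM. Goblet markers summed to 4934, 2764 and 4887 CPM and to 9390, 4196 and 7463 CPM, led by Fcgbp. With Rspo1 in WT cultures stem sums were thus high at the dose where Neurog3 was high, and enterocyte and goblet sums at the dose where Sct and Gip were. In KO2 with Rspo2, where Neurog3 was not lower at the low dose, the stem sum was 3407 CPM at the high and 3891 CPM at the low dose. By calls, all 10 stem markers were higher at the high dose in each of the 3 WT comparisons, and 5 of 8 enterocyte markers were lower in each. Goblet markers were mixed, with 1 of 8 higher and 1 lower with Rspo1, 0 and 4 with Rspo2 and 2 and 1 with Rspo3, and of 8 Paneth markers 7, 7 and 6 were higher. The part of these cell types in the members' changes was not tested.

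**Figure D5:**
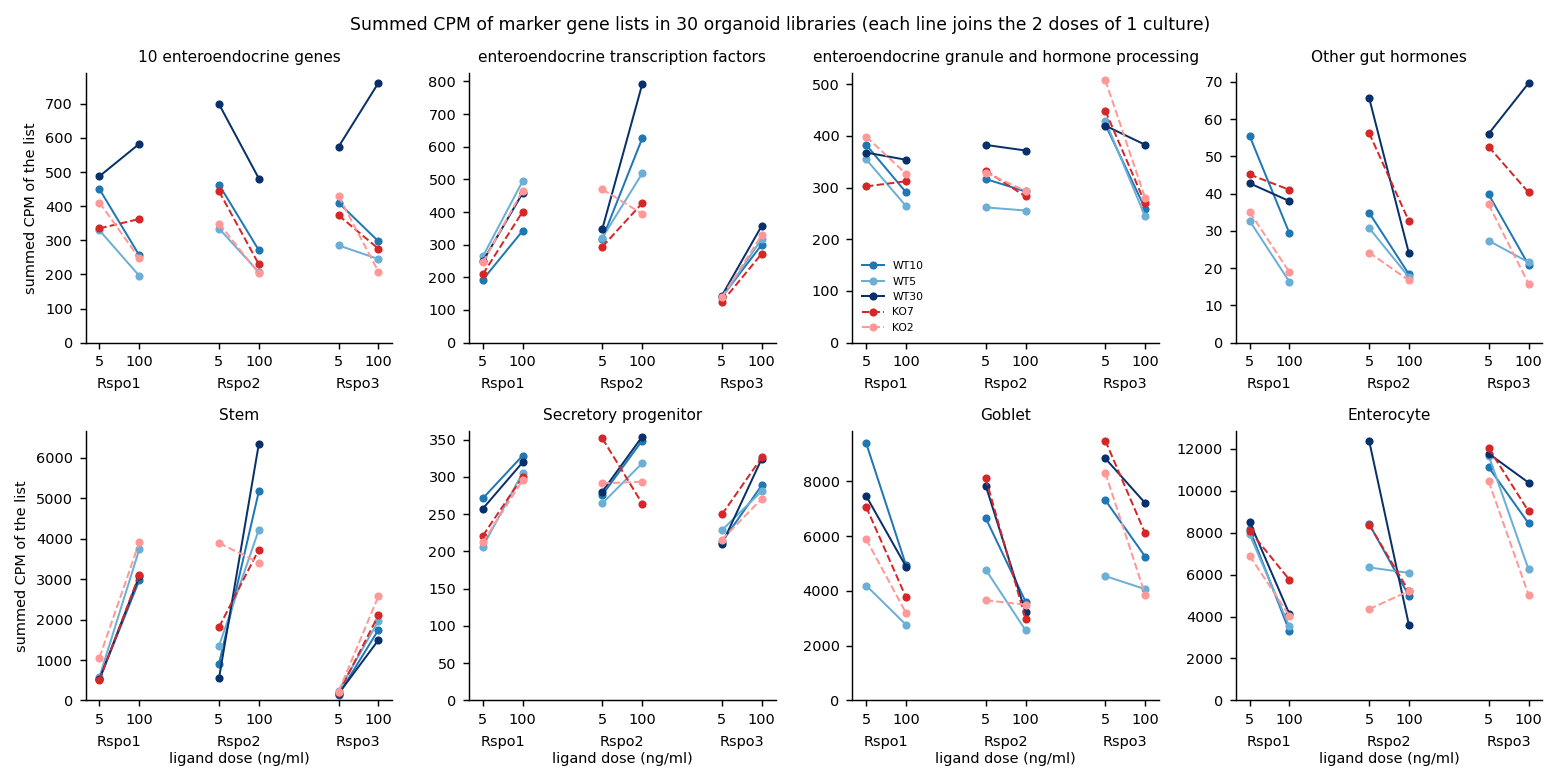
Summed CPM of the 10 members and of 7 other gene lists in the 30 organoid libraries, a line joining the 2 doses of 1 culture. In WT10 with Rspo1 the members sum to 255.9 CPM at 100 ng/ml and 449.8 CPM at 5 ng/ml, while stem markers sum to 2972 and 527.9 CPM. The members' sum is higher at 100 ng/ml in WT30 with Rspo1 (582.8 against 487.75 CPM) and Rspo3 (761.4 against 574.2 CPM). It is also higher in KO7 with Rspo1 (362.45 against 334.9 CPM), and lower in all other pairs of culture and ligand.

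Other transcription factors, from the fixed enteroendocrine list, were read in the same dose comparisons. Whether their changes lay in endocrine cells was not tested. Of 19 tested, 13 were higher at 100 ng/ml in WT cultures with Rspo1 (68.4%, beside 53.4% of all genes), 5 higher and 1 lower with Rspo2 (31.6%, beside 33.4%) and 13 higher with Rspo3 (68.4%, beside 51.4%). In KO cultures 7 (36.8%, beside 29.8%), 0 and 8 (42.1%, beside 44.5%) were higher. Under TMM the shares were 47.4%, 31.6% and 57.9% in WT cultures, beside 45.6%, 30.4% and 47.7% of all genes, and 15.8%, 0 and 36.8% in KO cultures, beside 26.7%, 0.0470% and 41.6%. Foxa2 led with Rspo1 in WT cultures, from a mean of 5.85 to 22.4 CPM (log2 fold change 1.77, adjusted p = 3.40e-07), before Foxa1 (1.21) and Neurod2 (from 0.933 to 3.18 CPM). With Rspo2 the largest were Sox4 (1.34), Foxa2 (1.14) and, lower, Isl1 (-0.96), a factor of maturing endocrine cells, and with Rspo3 Foxa2 (1.62), Sox4 (1.36) and Foxa1 (1.29). In KO cultures they were Foxa2 (1.61), Foxa1 (1.14) and Mnx1 (0.87) with Rspo1 and Foxa2 (1.77), Foxa1 (1.52) and Sox4 (1.41) with Rspo3. Of these named factors only Mnx1 lost its call under TMM.

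Genes for granules and hormone processing were mixed. Of 21 tested, 3 were higher and 3 lower in WT cultures with Rspo1, 1 and 2 with Rspo2, and 2 and 3 with Rspo3, and in KO cultures 2 and 1, 0 and 0, and 1 and 3. Ddc, an enzyme of serotonin synthesis, fell from a mean of 189 to 71.9 CPM with Rspo1 in WT cultures (log2 fold change -1.38, adjusted p = 0.00106), by 1.48 with Rspo3, and in KO cultures by 1.24 and by 1.86. Slc18a1, a vesicle amine transporter, fell by 1.46 with Rspo3 in WT and by 1.23 in KO cultures. Cplx2 (1.13) and Cacna1a (0.97) rose with Rspo1 in WT cultures, and Cplx2 (1.01) with Rspo3. With Rspo2 in WT cultures Cacna1a (0.98) rose and Abcc8 (-1.07) and Vgf (-0.84) fell, and in KO cultures Pam (1.02) and Cacna1a (0.71) rose with Rspo1 and Resp18 (adjusted p = 0.00138) fell with Rspo3. Under TMM the counts were 1 higher and 3 lower in each of the 3 WT comparisons, and 1 and 2, 0 and 0, and 0 and 4 in KO cultures, and Cplx2 and Pam were no longer called. Of 3 other gut hormones tested Sst, which encodes somatostatin, fell in WT cultures from 18.2 to 6.97 CPM with Rspo1 (log2 fold change -1.42, adjusted p = 0.0492) and from 16.4 to 3.27 CPM with Rspo2 (-1.97, adjusted p = 0.0147), and 0 of 3 were called in the other 4 dose comparisons.

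Ligands were compared at 1 dose, Rspo2 or Rspo3 against Rspo1, and the comparisons share their Rspo1 libraries. At 5 ng/ml in WT cultures Neurog3 was at 6.55, 5.45 and 6.75 CPM with Rspo2 against 2.15, 2.2 and 3.45 CPM with Rspo1. Neurod1 was at 8.85, 5.25 and 10.2 CPM with Rspo2 against 3.8, 3.55 and 4.5 CPM. Both regulators were higher with Rspo2 in every library, without overlap. Neurog3 rose by 1.02 (SE 0.35, adjusted p = 0.0395) and Neurod1 rose by 0.84 (SE 0.30, adjusted p = 0.0497), in 3 of 3 cultures each. They were 2 of 10 members called, beside 22.8% of all genes; neither was called under TMM, with no filter, without WT10 or without WT30, only Neurod1 was without WT5, and only Neurog3 was without KO7 or KO2. With the culture as a block 4 were called, adding Chgb, higher, and Gip, lower, beside 35.9%.

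With 5 ng/ml Rspo3 Neurog3 was at 1.05, 0.95 and 1.5 CPM, below every WT library with Rspo1 at that dose. By limma 0 of 10 members were called and 0 had an unadjusted p under 0.05, beside 16.4% of all genes, and with the culture as a block Neurog3 was the 1 called, at -0.72, beside 29.1%. In KO cultures at 5 ng/ml Neurog3 was at 9.6 and 20.4 CPM with Rspo2, at 3.7 and 8.6 CPM with Rspo1 and at 1.7 and 3.7 CPM with Rspo3. The order of the ligands was thus Rspo2, Rspo1, Rspo3 in each of the 5 cultures, with group overlap only between Rspo1 and Rspo3 in KO cultures. For Rspo2 against Rspo1 in KO cultures 0 of 10 members were called, 2 had an unadjusted p under 0.05 (Neurog3 at 1.16, adjusted p = 0.0645, and Sct at -1.56, adjusted p = 0.0745), and 17.9% of all genes were called. With the culture as a block 3 were, Neurog3 higher and Sct and Gip lower, beside 31.9%, and without the KO2 library at 5 ng/ml Rspo2 Neurog3 was at 0.66 (adjusted p = 0.476) with no block, beside 6.38% of all genes, and 0 of 10 members were called with it (Neurog3 0.93, Sct -0.90, Gip -0.54), beside 13.7%. Without WT30 in the fit 1 member, Neurog3, was called here. For Rspo3 against Rspo1 in KO cultures 0 were called and 1 had an unadjusted p under 0.05, beside 16.2% of all genes, and with the block Neurog3 was the 1 called, at -0.92, beside 26.3%.

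At 100 ng/ml the ligands gave few differences in any gene. In WT cultures 0 of 10 members were called for Rspo2 against Rspo1 (0.204% of all genes) and 0 for Rspo3 against Rspo1 (0.00523%), and 0 had an unadjusted p under 0.05 in either. In KO cultures 0 were called for Rspo2 (0.0105%) and 0 for Rspo3 (0%), with 1 and 0 members at an unadjusted p under 0.05; that 1 was Gcg, at 0.4 and 0.25 CPM with Rspo2 against 0.65 and 3.7 CPM with Rspo1. Lists followed at the low dose: with Rspo2 5 of 19 transcription factors were higher in WT cultures (Foxa2 0.83, Neurod2 0.70 and Nkx2-2 0.62 the largest) and 6 in KO cultures (Foxa2 1.36, Neurod2 0.97 and Nkx2-2 0.96), of which only Foxa2 and Foxa1 kept their call without the KO2 library at 5 ng/ml Rspo2. With Rspo3 4 were lower in each genotype, led by Sox4 (-1.15 in WT and -1.20 in KO cultures), and Mnx1 was among them (-0.76 and -1.07). Under TMM the counts of these factors were 3 higher in WT and 5 higher in KO cultures with Rspo2, and 2 lower in each with Rspo3, where Sox4 was called in WT cultures only and Mnx1 in KO cultures only. Nkx2-2 then lost its call in WT cultures with Rspo2. Of 21 granule genes 2 were lower with Rspo2 in WT cultures (Ddc -1.02 and Slc18a1 -0.78) and 2 higher in KO cultures (Pam 1.04 and Cacna1a 0.69, the latter not without that library and the former not under TMM), and with Rspo3 Slc18a1 alone was higher (0.72 and 1.04). No gene of the 3 lists was called between ligands at 100 ng/ml, and none of 3 other gut hormones at either dose. Under TMM the share of called genes that were higher with Rspo2 than Rspo1 at 5 ng/ml drops from 72.1% to 52.5% in WT cultures and from 75.7% to 50.5% in KO cultures, and with Rspo3 it goes from 22.5% to 37.6% and from 19.3% to 32.5%. For Rspo3 at 100 ng/ml in WT cultures TMM raises the genes called from 1 to 218, of which 86.2% were higher.

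Lgr5 genotype in organoids was compared last, KO against WT, within each condition. Gcg was low in KO cultures: its 12 libraries ran from 0.25 to 3.7 CPM with a median of 1 CPM, and the 18 WT libraries from 1.5 to 8.2 CPM with a median of 3.875 CPM. In the culture means over the 6 conditions it stood at 0.808 CPM in KO7 and 2 CPM in KO2, against 4.02, 4.1 and 4.59 CPM in WT10, WT5 and WT30. Both KO cultures lay below all 3 WT cultures in that mean, with overlap between single libraries. Gcg would not have passed the filter on these means without the WT cultures, where it is high. Its test therefore adds nothing to the means. The difference of the means was -1.12 (SE 0.20) and missed the threshold over all genes (adjusted p = 0.167). It was called without KO2 (-1.44, adjusted p = 0.0263), where KO7 stands alone and is taken to vary as the WT cultures do, and over all alternatives the adjusted p ran from 0.0263 to 0.473.

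Within conditions Gcg differed by -0.14 and -1.34 with Rspo1 at 100 and 5 ng/ml, and by -1.31 and -1.44 with Rspo3. With Rspo2 at 100 ng/ml it was at 0.4 and 0.25 CPM in KO cultures against 1.5, 1.5 and 1.95 CPM, and at 5 ng/ml it differed by -1.49, the nearest to a call (adjusted p = 0.0551), and there Gcg was called under TMM. Neurog3 leaned the other way at the low doses: with 5 ng/ml Rspo1 it was at 3.7 and 8.6 CPM in KO cultures against 2.15, 2.2 and 3.45 CPM in WT cultures, apart without overlap but not called (log2 fold change 0.92, adjusted p = 0.544). Chga was lower in both KO cultures on average, at 41.4 and 46.7 CPM against 52.6, 54.2 and 127 CPM, and was not called in any condition. By limma 0 of 10 members were called with 100 ng/ml Rspo1 (0.214% of all genes), 5 ng/ml Rspo1 (0.125%), 100 ng/ml Rspo2 (1.20%), 5 ng/ml Rspo2 (4.54%), 100 ng/ml Rspo3 (0.868%), 5 ng/ml Rspo3 (0.193%) and in the culture means (0.169%). At an unadjusted p under 0.05 the counts were 0, 2, 1, 2, 2, 1 and 1, Gcg being among them in each of the last 6. Without KO7 Neurog3 (1.57) and Gcg (-1.69) were called with 5 ng/ml Rspo2, and without KO2 Gcg was called with 5 ng/ml Rspo3 (-1.97). Without the KO2 library at 5 ng/ml Rspo2 Neurog3 was at 0.55 and Gcg at -1.28 there, neither called, and the share of all genes called fell from 4.54% to 0.580%. Of the other enteroendocrine lists, Foxa2 (0.93), Foxa1 (0.68) and Rfx3 (0.57) were higher in KO cultures with 5 ng/ml Rspo2, 3 of 19 transcription factors, all 3 uncalled without that library and Rfx3 uncalled under TMM, and no other gene of these lists was called for genotype or for dose by genotype. Under TMM the share of called genes that were higher in KO cultures in that condition drops from 70% to 54.4%.

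Members also varied together across the 30 organoid libraries, which share 5 cultures and 6 conditions, so Pearson's r of log2(CPM + 1) is given as a description. Neurog3 followed Neurod1 at 0.71 and ran against Sct and Gip at -0.65 each. Neurod1 followed Tac1 at 0.81, Chga followed Chgb at 0.82 and Sct followed Gip at 0.83. Gcg went with Chga at 0.66 and Nts most with Sct at 0.58. Neurog3 followed Tac1 at 0.54, and Neurod1 was at -0.20 with Sct.

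Of all other genes with a mean of at least 5 CPM, the 5 most like the mean of the 10 members over these libraries were Scg2 (r = 0.904), Tph1 (0.897), Map1b (0.888), Disp2 (0.861) and Cpe (0.846). Taken singly, Neurog3 was most like Elp2 (0.963), Neurod1 most like Insm1 (0.915), Chga most like Map1b (0.916) and Chgb most like Tph1 (0.934). Gcg was most like Pde3a (0.803), Cck most like Abcc8 (0.880), Sct most like Zg16 (0.911), Gip most like Afp (0.917) and Tac1 most like Rfx6 (0.843).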

How the data were processed

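The deposited tables hold CPM: the authors trimmed paired-end reads with Trimmomatic 0.36, mapped them to GRCm38 with STAR 2.5.3a and counted them per gene with HTSeq 0.9.1, and each value is a share of all counted reads, rounded up to the next 0.05 CPM. Sorted libraries were made with Ovation SoLo and organoid libraries with NEBNext rRNA depletion. The 10 members and all gene lists were chosen with earlier results of these data known. Depth was recovered from the steps between low CPM values, with a method tested on simulated data.

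A gene entered a test if the number of libraries at 1 CPM or more reached the size of the smallest group. Tests were made by limma 3.58.1 (lmFit, eBayes with trend) on log2(CPM + 1) in R 4.3.3, with Benjamini-Hochberg adjustment over all genes tested. Each of the 5 comparisons of sorted cells used its own libraries (false discovery rate 0.1 and 1.5-fold). The 24 comparisons of organoids used 1 fit of 30 libraries in 12 groups (0.05), except the genotype comparison of 5 culture means. Reads recovered for the E16.5 pools (45375 low values, 100% of which came out whole) went to edgeR 4.0.16. Alternatives were a pseudocount of 0.1, no filter, TMM scaling, other sets of libraries in the fit, blocks for culture (consensus correlation 0.34, statmod 1.5.0), mouse and litter, and the omission of single libraries or cultures. For E18.5 against E16.5 and adult ileum cKO against HE the block was the sample number alone. That number joins samples that share no litter or mouse in the labels. Of 7 called results it kept 6.

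The rule for naming genes was all 10 members, up to 3 called genes with the largest changes from each of the 3 lists of other enteroendocrine genes, and the most abundant gene of each marker list. In comparisons with few or no calls only some members are named, and some marker sums stand without their most abundant gene. Genes most like a member were ranked by Pearson's r. Gene models matched GENCODE vM21 for 52403 of 52636 ids. Tables and plots used Python 3.11.15, numpy 2.4.6, pandas 2.3.3, scipy 1.17.1 and matplotlib 3.10.9.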

Additional observations from a re-analysis of the deposited data

Results flagged for a closer look

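Among the 4 adult HE libraries of the Lgr5-DTReGFP line, ileum of mouse 1 was the only one with Nts, at 0.5 CPM (2 reads), and the other 3 were at 0. Its gap to the others over the whole range was 1.000, above the critical value of Dixon's test for 4 samples. With the other 3 at exactly 0 that ratio is 1.000 whatever the value, and the 4 libraries mix 2 gut regions of 2 mice, so it adds nothing to the 2 reads.

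With the culture as a block, the dose effect of Rspo2 on Neurog3 differed between KO and WT organoids, by -1.32 on the log2 scale (adjusted p = 0.0381). Without the block the adjusted p was 0.323, without the KO2 library at 5 ng/ml the blocked value was -1.08 (adjusted p = 0.293), and over all alternatives the adjusted p ran from 0.0381 to 1.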

How the results depend on the processing

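Over 28 called results of members and 273 alternative values, 200 kept call and direction, 73 kept direction and lost the call, and 0 turned. The 6 that kept their call in every alternative were Cck and Nts in adult against E18.5, Neurog3 in WT organoids with Rspo1 and with Rspo3, Neurod1 with Rspo3 and Sct with Rspo1. Cck and Nts passed the filter only through the embryos, where they are high, so their kept calls add nothing to the values. In all but the alternatives that leave out a library or culture 16 kept their call. With no filter 11 of 28 calls were lost, with TMM scaling 5, with a pseudocount of 0.1 only 1, and with culture as a block 0 of 17. Beyond the calls given for it, the block changed no other. The causes were not tested.

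As counts of members, no filter gave 4 for E18.5 against E16.5 (7 as reported), 0 for ileum against duodenum (2), 1 for WT Rspo2 dose (3) and 0 for WT Rspo2 against Rspo1 at 5 ng/ml (2). TMM gave 0 for the last of these and 1 for KO against WT at 5 ng/ml Rspo2 (0). A pseudocount of 0.1 gave 1 for ileum against duodenum. A fit of all 15 sorted libraries gave 4 for E18.5 against E16.5 and 1 for ileum against duodenum. Only the libraries of the 2 groups gave 2 for KO Rspo1 dose (1) and 1 for WT Rspo3 against Rspo1 at 5 ng/ml (0). The culture block gave 7 for WT Rspo1 dose (4), 7 for WT Rspo2 dose, 3 for KO Rspo1 dose, 4 for WT Rspo2 against Rspo1 at 5 ng/ml, and, each from 0, 1 for WT Rspo3, 3 for KO Rspo2 and 1 for KO Rspo3 against Rspo1 at 5 ng/ml and 1 for dose by genotype with Rspo2. The supplementary genotypes gave 2 for cKO against HE (0), with Nts, at 0.0 in both HE libraries of that listing, turned to 2.33.

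Leaving out 1 library or culture gave 0 to 5 for E18.5 against E16.5, 0 to 2 for ileum against duodenum, 2 to 5 for WT Rspo1 dose, 0 to 4 for WT Rspo2 dose, 2 to 5 for WT Rspo3 dose, 0 to 3 for KO Rspo1 dose and 1 to 3 for KO Rspo3 dose. It gave 0 to 2 for KO against WT at 5 ng/ml Rspo2, 0 to 1 at 5 ng/ml Rspo3, 0 to 1 for WT and for KO Rspo2 against Rspo1 at 5 ng/ml and 0 to 1 for culture means. Where an arm then holds 1 library, it is taken to vary like the other groups. Sorted libraries hold as few as 1275872 reads, so values of 1 or 2 CPM there rest on few reads.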
